A study of Mus musculus with 6 samples.

Results

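Nr4a1, Nr4a2, Nr4a3, Egr1, Egr2 and Egr3, 6 transcription factor genes of the immediate early class, were read in mouse common myeloid progenitors (CMP) sorted by their content of reactive oxygen species (ROS). All 6 genes were measured, among 18193 genes with a probe set of a single gene symbol, and they were read by 15 of the 34945 such probe sets: 1 for Nr4a1, 6 for Nr4a2, 3 for Nr4a3, 1 for Egr1, 2 for Egr2 and 2 for Egr3. The groups were 3 arrays of high-ROS CMP and 3 arrays of low-ROS CMP, both from bone marrow of C57BL6 mice and both defined by the fluorescence of H2-DCFDA, a dye that ROS oxidise. No genotype, drug or time point separates the groups, and the labels give neither the age nor the sex of the mice. Whether replicates are separate animals or separate sorts is not in the labels, so p-values measure only the spread between these arrays, which may be technical. The series addresses the part of ROS in the step from CMP to megakaryocyte-erythrocyte progenitors. The 6 genes were chosen because immediate early genes had lower means in high-ROS CMP on these same arrays, and the difference between the groups is therefore given as a description, without a test.

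The Nr4a genes encode orphan nuclear receptors, which are set mainly by how much of them a cell makes and not by a hormone. The Egr genes encode zinc finger proteins that bind GC-rich sites and are held back by the corepressors Nab1 and Nab2. Both families are switched on within minutes by signals that reach their promoters through the cyclic AMP and calcium arm, which acts on cyclic AMP response elements (CRE), and the MAP kinase arm, which acts on serum response factor at CArG boxes. In mouse haematopoietic stem cells, Egr1 and the pair Nr4a1 and Nr4a3 are known for restraining proliferation.

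The bases just before the annotated start sites are shown because these elements are where the signals are read. RefSeq promoter windows (build GRCm38.p6) were matched for 4 of the 6 genes, Nr4a1, Nr4a2, Nr4a3 and Egr2, and the 250 bases before the start were searched on both strands for the CRE TGACGTCA, its core TGACG (which a full CRE holds on both strands), the CArG box, the EGR site GCGNGGGCG and the Nr4a monomer site AAAGGTCA. Matches stand in capitals. The windows lie at chr15:101266596-101266845, plus strand, for Nr4a1, at chr2:57124004-57124253, minus strand, for Nr4a2, at chr4:48045055-48045304, plus strand, for Nr4a3, and at chr10:67537619-67537868, plus strand, for 1 of the 5 annotated starts of Egr2.
Nr4a1: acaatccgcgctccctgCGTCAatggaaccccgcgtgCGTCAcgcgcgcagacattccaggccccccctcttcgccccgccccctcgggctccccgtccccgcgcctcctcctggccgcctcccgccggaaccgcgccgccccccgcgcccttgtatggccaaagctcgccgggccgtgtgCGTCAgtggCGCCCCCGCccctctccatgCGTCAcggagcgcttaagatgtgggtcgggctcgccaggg
Nr4a2: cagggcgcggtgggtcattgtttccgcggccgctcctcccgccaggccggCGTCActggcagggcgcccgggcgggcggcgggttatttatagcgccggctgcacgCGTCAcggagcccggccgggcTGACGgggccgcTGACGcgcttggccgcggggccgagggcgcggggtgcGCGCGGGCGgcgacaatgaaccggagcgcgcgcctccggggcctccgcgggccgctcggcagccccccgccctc
Nr4a3: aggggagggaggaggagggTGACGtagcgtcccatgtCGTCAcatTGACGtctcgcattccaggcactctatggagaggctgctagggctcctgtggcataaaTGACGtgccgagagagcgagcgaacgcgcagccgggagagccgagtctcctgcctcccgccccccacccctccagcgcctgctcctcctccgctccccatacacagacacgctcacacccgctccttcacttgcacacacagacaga
Egr2: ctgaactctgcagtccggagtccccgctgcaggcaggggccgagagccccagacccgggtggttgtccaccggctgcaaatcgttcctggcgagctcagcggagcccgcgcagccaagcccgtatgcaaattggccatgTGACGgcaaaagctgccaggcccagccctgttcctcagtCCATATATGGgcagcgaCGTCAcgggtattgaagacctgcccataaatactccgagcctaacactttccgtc

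Each of the 3 Nr4a windows held 4 CRE cores. At least 1 core was present in 17.8% of all 32851 promoter windows of this length, and 4 or more in 0.137% of them. The cut of 4 is the count seen in the Nr4a windows, and the shares given here are over all windows whatever their base content. G and C made up 74.4%, 80% and 63.6% of the windows of Nr4a1, Nr4a2 and Nr4a3. Windows of like base content were not compared. The windows of Nr4a1 and Nr4a2 also held 1 EGR site each, a motif found in 4.70% of all windows. The Egr2 window shown held 1 CArG box, which 1.47% of all windows hold, between 2 cores. The full CRE (1.55% of all windows) and the Nr4a monomer site (1.34%) had no match in these 4 windows. Of the other 4 windows of Egr2, 2 overlap the one shown and hold the same matches, 1 just upstream held a CArG box alone, and the last held none of the motifs.

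**Figure D1:**
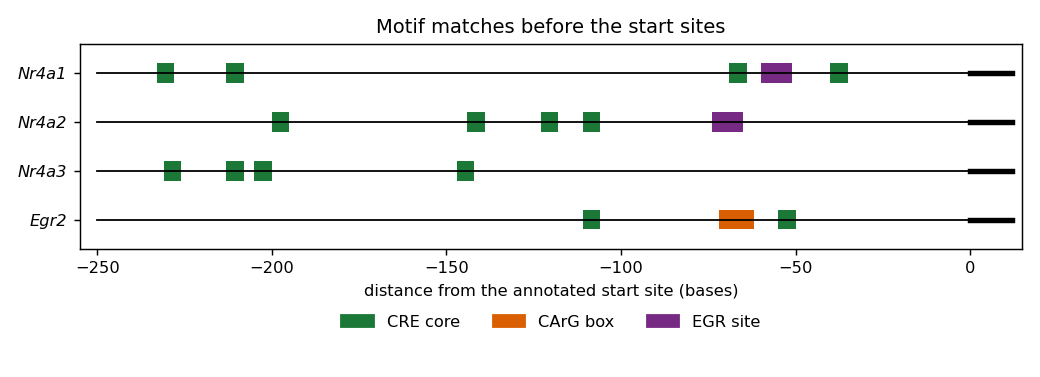
Positions of motif matches in the 250 bases before the annotated start site (x axis, bases, start at 0) of Nr4a1, Nr4a2, Nr4a3 and 1 start of Egr2. Each Nr4a row has 4 CRE cores, while the Egr2 row has 2 cores around 1 CArG box.

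The arrays give 1 linear signal per probe set, with array medians of 40.4 to 42.5, and a signal near those medians is read as near background because the values carry no detection call. Correlations between arrays over all genes lay between 0.975 and 0.991. The progenitor markers Kit, Cd34, Fcgr3, Fcgr2b, Flt3 and Myb had mean signals between 156 and 3098 in both groups. Of these 6 markers, 0 passed the test below (limma), and 0 had an unadjusted p under 0.05. They were not equal between groups, with 3 lower and 3 higher by mean in high-ROS CMP. Flt3 had means of 250 in high-ROS and 156 in low-ROS CMP, and Cd34 had 584 and 417, both with overlap. Kit had 545 in high-ROS and 642 in low-ROS CMP. Its groups did not overlap, as for 5.32% of all genes in the downward direction. The ratio of 3' to 5' Gapdh signal, a measure of RNA integrity, was 2.997 to 4.53 on the high-ROS and 2.54 to 3.19 on the low-ROS arrays, highest on high-ROS replicate 3. The same ratio for Actb was near 1 in both groups and overlapped, at 1.03 to 1.06 on the high-ROS and 0.976 to 1.0496 on the low-ROS arrays. Bulk arrays cannot tell fewer expressing cells from less RNA per cell. With the Gapdh ratio as a covariate the median of the 6 log2 fold changes given below was -0.69; its part in the results was not tested otherwise.

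The mean signal of all 6 genes was lower in high-ROS than in low-ROS CMP. The log2 fold changes, computed as high-ROS minus low-ROS on log2(signal + 16), ran between -0.77 for Nr4a1 and -0.27 for Nr4a2, with a median of -0.33, against a median of 0.02 over all genes, of which 46% had a lower mean. The pseudocount of 16 shrinks the changes of dim genes. For 3 of the 6, Nr4a1, Egr1 and Egr2, every high-ROS array lay below every low-ROS array, as it did for 5.32% of all genes. In the fit across all genes (limma, Benjamini-Hochberg), 0 of the 6 had an adjusted p under 0.05, against 0.055% of all genes (0.0385% lower and 0.0165% higher), and 2 had an unadjusted p under 0.05, against 3.37% of all genes in the downward direction. These counts come from the contrast that chose the genes, and nothing is read from them.

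Nr4a1 differed most. This receptor, first found as a gene induced by growth factors, had signals of 839, 745 and 612 in high-ROS replicates 1 to 3, against 1447, 1308 and 1036 in low-ROS replicates 1 to 3. Every high-ROS array was below every low-ROS array, and replicate 3 was the lowest of each group. The means were 732 ± 114 (SD, n = 3) in high-ROS and 1264 ± 209 (SD, n = 3) in low-ROS CMP, which is 1.71-fold lower in high-ROS CMP on the scale of signal + 16 (log2 fold change -0.77, SE 0.155). Of all genes, 0.396% had a lower log2 fold change. Nr4a1 has a single probe set, so no other probe set bears on its value.

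Nr4a2, the receptor best known from midbrain dopamine neurons, had signals of 563, 396 and 602 in high-ROS CMP, against 771, 596 and 519 in low-ROS CMP on its brightest probe set. High-ROS replicate 3 was above 2 of the 3 low-ROS arrays, and the groups overlapped. The means of 521 ± 109 (SD, n = 3) in high-ROS and 629 ± 129 (SD, n = 3) in low-ROS CMP gave a log2 fold change of -0.27 (SE 0.189). The value was -0.09 without high-ROS replicate 2, -0.11 without low-ROS replicate 1 and -0.67 with the Gapdh covariate. The next probe sets of Nr4a2 by brightness separated the groups where the brightest did not. One had 376, 334 and 247 in high-ROS, against 490, 418 and 417 in low-ROS CMP (log2 fold change -0.47, SE 0.173). Another had 302, 279.5 and 307 in high-ROS, against 445, 361 and 343 in low-ROS CMP (log2 fold change -0.35, SE 0.152). On both, every high-ROS array lay below every low-ROS array. The fourth, at 158 ± 26.0 (SD, n = 3) in high-ROS and 198 ± 26.2 (SD, n = 3) in low-ROS CMP, overlapped between groups (log2 fold change -0.30, SE 0.186). The last 2 probe sets had mean signals over the 6 arrays of 27.9 and 22.2, below the array medians, and log2 fold changes of 0.04 and 0.05.

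Nr4a3, the remaining receptor of the family, was the most variable of the 6 within groups. Its brightest probe set had 205, 174 and 366 in high-ROS CMP, against 290, 255 and 359 in low-ROS CMP. High-ROS replicate 3 was the highest of all 6 arrays, and the groups overlapped. The means were 248 ± 103 (SD, n = 3) in high-ROS and 301 ± 53.4 (SD, n = 3) in low-ROS CMP (log2 fold change -0.32, SE 0.249). Without high-ROS replicate 3 it was -0.62, without high-ROS replicate 2 -0.11, without low-ROS replicate 3 -0.19 and with the Gapdh covariate -0.72. The spread of Nr4a3 within groups on the log2 scale, an SD of 0.411, was larger than that of 92.6% of all genes. Its second probe set, at 118 ± 10.9 (SD, n = 3) in high-ROS and 122 ± 7.43 (SD, n = 3) in low-ROS CMP, gave a difference of -0.05 on the log2 scale (SE 0.182). Its dimmest stayed below the array medians, at 7.20, 8.54 and 5.32 in high-ROS, against 13.8, 22.1 and 18.9 in low-ROS CMP, and a fold change at such levels is not interpreted.

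Egr1, the family member most studied as a serum- and stress-induced gene, had signals of 2269.65, 2591 and 2334 in high-ROS CMP, against 2775, 3708 and 2697 in low-ROS CMP. The groups did not overlap, although the gap between the highest high-ROS array and the lowest low-ROS array was small beside the range of the low-ROS arrays. The means of 2398 ± 169.9 (SD, n = 3) in high-ROS and 3060 ± 562 (SD, n = 3) in low-ROS CMP gave a log2 fold change of -0.34 (SE 0.123), a signal 1.26-fold lower in high-ROS CMP. Without low-ROS replicate 2, the highest array, the log2 fold change was -0.19. Egr1 has a single probe set.

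Egr2, a factor of hindbrain and Schwann cell development that also acts in lymphocytes, had signals of 469, 407 and 417 in high-ROS CMP, against 477, 586 and 527 in low-ROS CMP. The groups did not overlap, but high-ROS replicate 1 lay just under low-ROS replicate 1. The means were 431 ± 33.1 (SD, n = 3) in high-ROS and 529.9 ± 54.6 (SD, n = 3) in low-ROS CMP (log2 fold change -0.29, SE 0.139). Its other probe set gave nearly the same difference, with 359, 338 and 336 in high-ROS, against 458, 445 and 361 in low-ROS CMP (log2 fold change -0.27, SE 0.146). There too the groups did not overlap, with high-ROS replicate 1 just under low-ROS replicate 3.

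Egr3, a factor needed for muscle spindles that also acts in T cells, had signals of 144, 96.4 and 174 in high-ROS CMP, against 177, 168 and 259 in low-ROS CMP. High-ROS replicate 3 exceeded low-ROS replicate 2, so the groups overlapped by that 1 pair of arrays. The means were 138 ± 39.1 (SD, n = 3) in high-ROS and 201 ± 50.6 (SD, n = 3) in low-ROS CMP (log2 fold change -0.50, SE 0.241). The value was -0.29 without high-ROS replicate 2, -0.32 without low-ROS replicate 3 and -0.17 with the mean of both probe sets. The other probe set of Egr3 was near background, at 44.9 ± 18.4 (SD, n = 3) in high-ROS and 36.7 ± 8.38 (SD, n = 3) in low-ROS CMP (log2 fold change 0.17, SE 0.273).

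**Figure D2:**
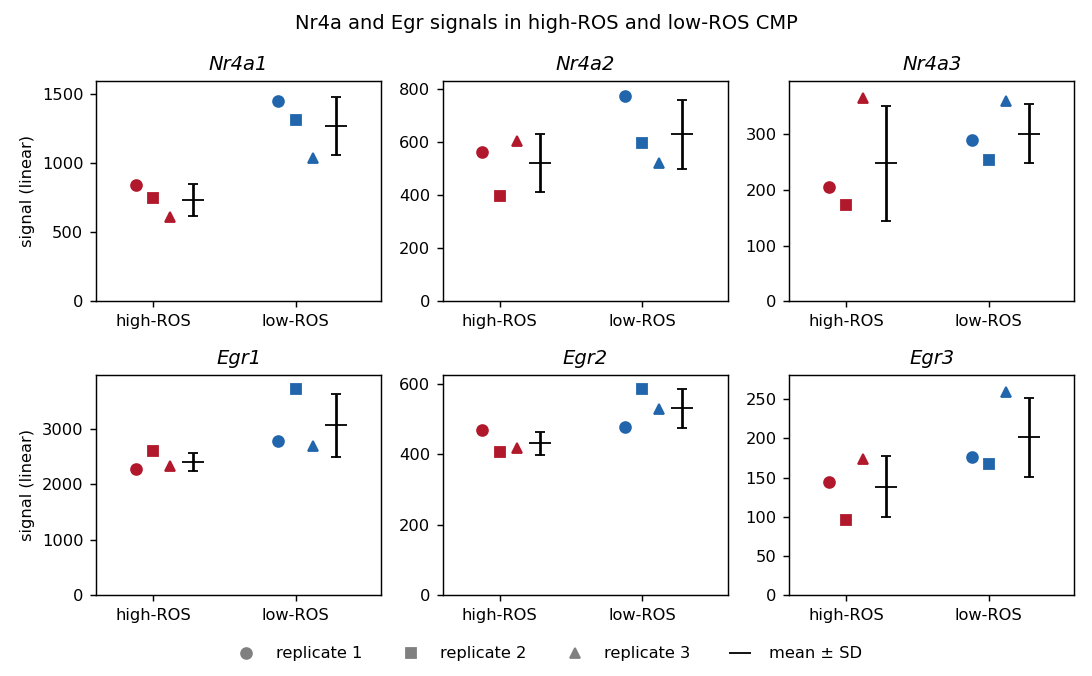
Deposited linear signal (y axis, from 0) of the probe set standing for each of the 6 genes on 3 high-ROS (red) and 3 low-ROS (blue) arrays; symbols give the replicate and the black mark the mean ± SD. The groups are apart for Nr4a1, Egr1 and Egr2 and overlap for Nr4a2, Nr4a3 and Egr3.

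Of the 11 probe sets with a mean signal of 50 or more, 11 were lower by mean in high-ROS CMP, and in 6 of those the groups did not overlap. The other 4 of the 15, with means under 50, are near background and no direction is read from them. Over all probe sets with a single gene symbol, 48.7% were lower by mean and 5.95% had every high-ROS array below every low-ROS array. Probe sets of a gene share the RNA of their array and are not replicates of each other.

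**Figure D3:**
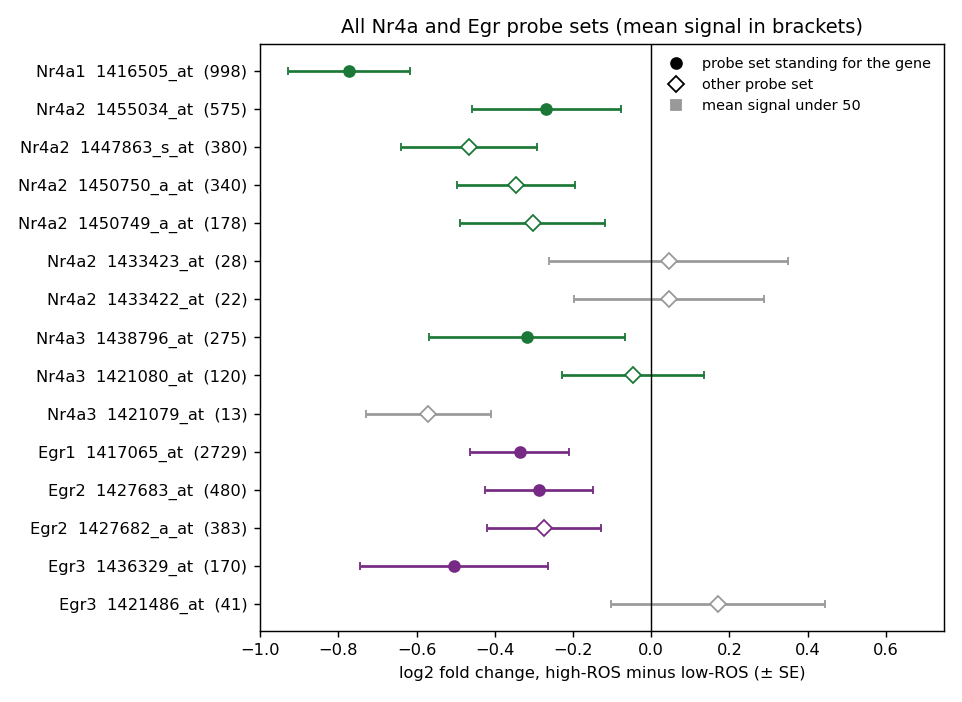
Log2 fold change, high-ROS minus low-ROS (x axis, ± SE), for each of the 15 probe sets, with its mean signal over the 6 arrays in brackets. The 11 probe sets with a mean signal of 50 or more lie below 0; the 4 dimmer ones (grey) are near background.

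The genes that act beside the Nr4a receptors or on their promoters did not move one way. Of 17 measured heterodimer partners and calcium, MEF2 and CREB pathway genes (1 more of the list is not analysed here), the mean was lower in high-ROS CMP for 9 and higher for 8, and the median log2 fold change was -0.08. None passed across all genes (0 of 17, limma). At an unadjusted p under 0.05 (limma), 2 were lower and 1 was higher, against 3.37% and 4.44% of all genes. Hdac7, a histone deacetylase that MEF2 brings to the Nr4a1 promoter in mouse thymocytes, had 164, 150 and 109 in high-ROS, against 279, 333 and 209 in low-ROS CMP (log2 fold change -0.88, SE 0.216), with no overlap, and -0.51 (SE 0.270) on its other probe set. Mef2d, a MEF2 factor of that promoter, had 734 ± 57.7 (SD, n = 3) in high-ROS and 521 ± 37.5 (SD, n = 3) in low-ROS CMP (log2 fold change 0.48, SE 0.127), but -0.03 and -0.08 on its other probe sets. The heterodimer partner Rxra was nearly equal between groups (log2 fold change 0.03, SE 0.193). Crem, a CRE-binding factor that the same signals induce, chosen after its values were seen, had 259, 195 and 206.5 in high-ROS, against 260.15, 293 and 373 in low-ROS CMP. Its groups did not overlap, although high-ROS replicate 1 and low-ROS replicate 1 were close (log2 fold change -0.46, SE 0.185), and its other bright probe set was at -0.96 (SE 0.194).

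On the Egr side, the list held Egr4, the Nab corepressors, serum response factor and its partners, and MAP kinase pathway genes. Of 12 measured genes, 4 had a lower and 8 a higher mean (3 more of the list are not analysed here), with a median log2 fold change of 0.11. None passed across all genes (0 of 12, limma). At an unadjusted p under 0.05 (limma), 0 were lower and 2 higher, against 3.37% and 4.44% of all genes. Nab2, a corepressor that Egr factors themselves induce, had 46.0, 48.8 and 65.1 in high-ROS, against 22.7, 43.6 and 20.2 in low-ROS CMP (log2 fold change 0.65, SE 0.245), all signals around the array medians. Nab1, the other corepressor, was at -0.23 (SE 0.136). Elk3, a partner of serum response factor, had 0.37 (SE 0.143) on its brightest probe set and 0.01, -0.35 and -0.16 on the others. Srf, the factor itself, had 2636 ± 121 (SD, n = 3) in high-ROS and 2701 ± 246 (SD, n = 3) in low-ROS CMP (log2 fold change -0.03, SE 0.0947). Egr4 had 46.9, 16.1 and 34.2 in high-ROS, against 21.8, 21.4 and 16.6 in low-ROS CMP (log2 fold change 0.38, SE 0.248). Its groups overlapped, and its signals were near or below the array medians, so no direction is read from it.

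Other immediate early genes leaned the same way as the 6. In a list of 37 without the AP-1 factors, the mean was lower in high-ROS CMP for 35 and higher for 2, and the median log2 fold change was -0.25. None passed across all genes (0 of 37, limma; 11 were lower and 0 higher at an unadjusted p under 0.05, against 3.37% and 4.44% of all genes), and 10 had every high-ROS array below every low-ROS array, against 5.32% of all genes. The list was drawn up with the lower means of such genes known, and its counts are a description. Klf10, a repressor induced by transforming growth factor beta, had 808, 841 and 659 in high-ROS, against 1237, 1183 and 1429 in low-ROS CMP (log2 fold change -0.73, SE 0.130). Maff, a small Maf factor, had 688, 827 and 592 in high-ROS, against 1034, 1338 and 1170.24 in low-ROS CMP (log2 fold change -0.74, SE 0.147). These values are of the size seen for Nr4a1. Ier2, a nuclear immediate early protein, had -0.50 (SE 0.198), while Dusp1, the phosphatase that switches off p38 and JNK, had -0.08 (SE 0.135). Of 8 AP-1 factors, 7 had a lower mean, with a median log2 fold change of -0.17, and none passed across all genes (0 of 8, limma; 0 at an unadjusted p under 0.05). Fosl2 had -0.18 (SE 0.0934), Jund had -0.15 (SE 0.0871) and Fos, chosen after its values were seen, had 2259, 3694 and 1922 in high-ROS, against 2085, 3596 and 2224.5 in low-ROS CMP (log2 fold change -0.02).

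**Figure D4:**
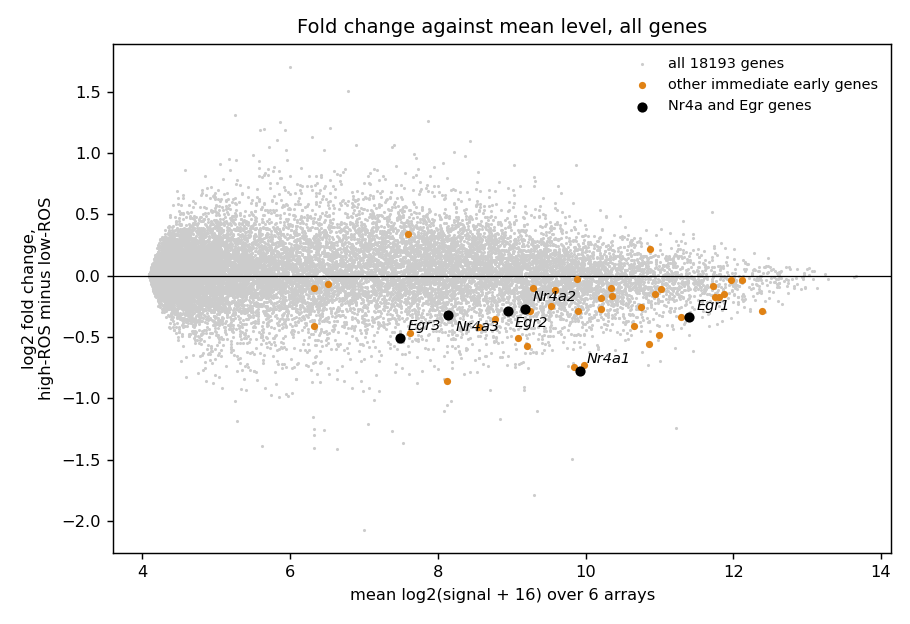
Log2 fold change, high-ROS minus low-ROS (y axis), against mean log2(signal + 16) over 6 arrays (x axis) for 18193 genes (grey), 37 other immediate early genes (orange) and the 6 Nr4a and Egr genes (black). All 6 lie below 0, with Nr4a1 the lowest of them at -0.77.

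The difference between arrays of one group did not run the same way in all of these genes. Within the high-ROS group, 26 of the 37 other immediate early genes and 6 of the 8 AP-1 factors were highest on replicate 2, as were 33.4% of all genes. Of the 6 Nr4a and Egr genes, 1, Egr1, was highest and 4 were lowest on that array (33.6% of all genes). In both groups at once, 21 of the 37, 5 of the 8 and 1 of the 6 were highest on replicate 2, against 13.8% of all genes, and the 1 was again Egr1. Nr4a1 was lowest on replicate 3 in both groups. The labels do not say whether replicate numbers mark a shared preparation, and how handling or sorting bears on these orders was not tested.

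Averaged after centring each gene on its mean over the 6 arrays, the 6 genes stood at -0.16, -0.39 and -0.07 on high-ROS replicates 1 to 3 and at 0.22, 0.21 and 0.20 on low-ROS replicates 1 to 3. The groups did not overlap, but the genes were chosen by this contrast and nothing is read from that. The near-equal low-ROS means hide members that differ in opposite ways, with Nr4a1 at 0.59, 0.45 and 0.12 and Egr3 at 0.10, 0.03 and 0.62 on those arrays. By summed signal, in which Egr1 weighs most, the 6 genes reached 4489.88, 4409 and 4506 on the high-ROS and 5936, 6619.87 and 5398 on the low-ROS arrays, so that there the low-ROS arrays were the more spread. The mean of the 37 other genes was -0.18, 0.06 and -0.27 on the high-ROS and 0.05, 0.30 and 0.04 on the low-ROS arrays, so that high-ROS replicate 2 lay above 2 low-ROS arrays.

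Markers of stem and multipotent cells and of megakaryocytes had lower summed signals on the high-ROS arrays too. All marker lists were chosen with earlier results of these data known, so their counts are a description. Of 11 measured stem and multipotent markers, 9 had a negative log2 fold change, 8 of them at an unadjusted p under 0.05 (limma, 3.37% of all genes). For Procr and Hoxa9 it was positive (0.05 and 0.14). The summed signal of the 11 was 1449 to 1828 on the high-ROS and 2495 to 2805 on the low-ROS arrays. Angpt1, with means of 426 in high-ROS and 935 in low-ROS CMP, and Tek, with 49 and 262, held most of that difference. Of 9 measured megakaryocyte markers 7 had a lower mean, and their summed signal was 1053 to 1537 on the high-ROS and 2537 to 2697 on the low-ROS arrays. Most of that difference lay in F2r, with means of 335 in high-ROS and 1156 in low-ROS CMP, and Pf4, with 666 in high-ROS and 1107 in low-ROS CMP, while Ppbp and Tubb1 had higher means and Gp9 and Vwf overlapped. On each list 1 gene passed across all genes (limma), Angpt1 and F2r, both lower in high-ROS CMP, as were 0.0385% of all genes. The 2 calls were lost with no trend in the fit and without any 1 array other than high-ROS replicate 3, and Angpt1 also with the Gapdh covariate (adjusted p from 0.00137 to 0.105 for Angpt1 and from 0.000241 to 0.148 for F2r over 18 alternatives, limma). Monocyte and macrophage markers went the other way, with 7 of 9 higher by mean, 5 of them at an unadjusted p under 0.05 (4.44% of all genes), and sums of 7506 to 9439 on the high-ROS and 5673 to 6340 on the low-ROS arrays. All 7 measured erythroid markers had a lower mean, as had 46% of all genes. Their sums were 13477 to 15341 on the high-ROS and 16516 to 16662 on the low-ROS arrays. The groups overlapped for 4 of the 7, and 2 had an unadjusted p under 0.05 (limma; 3.37% of all genes). Most of the difference in the sums lay in Slc4a1 and Car2. Slc4a1 had means of 4985 in high-ROS and 6109 in low-ROS CMP, and Car2 had 3798 in high-ROS and 4381 in low-ROS CMP. No marker of these lists was at 0, but 4 of the 11 stem markers (Slamf1, Fgd5, Mecom and Hoxa10) and 4 of the 9 megakaryocyte markers (Itga2b, Gp6, Ppbp and Tubb1) had means over the 6 arrays under 50, near background, and those 4 stem markers are among the 8 counted above. The part of these cells in the lower Nr4a and Egr signals was not tested. The sums of neutrophil (55361 to 57210 on the high-ROS, 54736 to 58591 on the low-ROS arrays), lymphoid (1471 to 1803, against 1483 to 1948), basophil and mast cell (1067 to 1299, against 1157 to 1263) and stromal and endothelial markers (655 to 1056, against 402 to 1539) overlapped between groups. The bright neutrophil granule transcripts, such as Ltf at 5474 in high-ROS and 5976 in low-ROS CMP, are those of later granulocytes than the CMP label names.

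**Figure D5:**
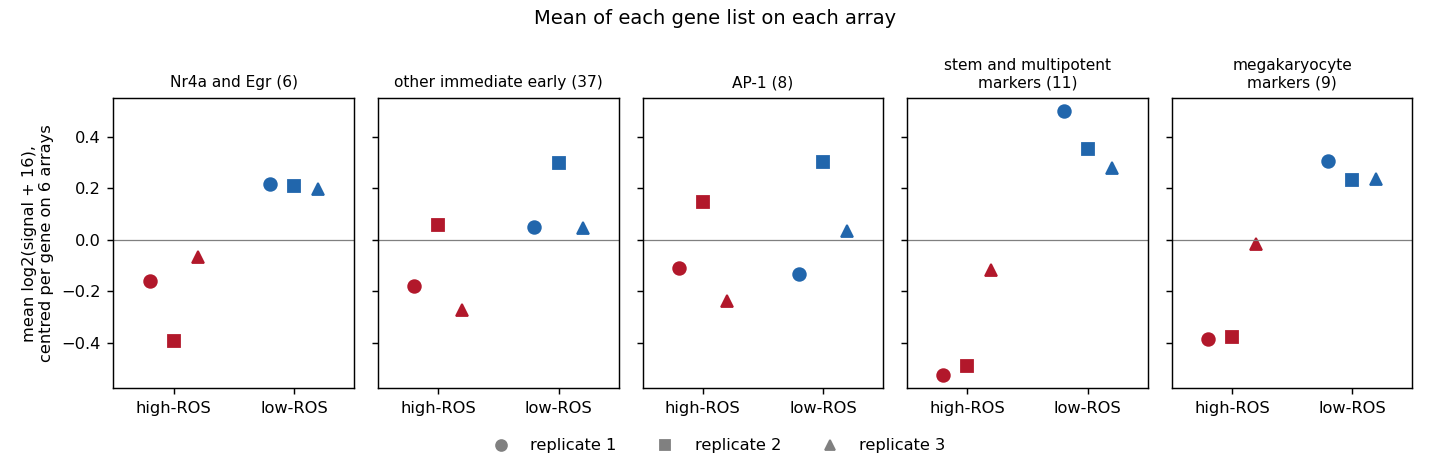
Mean log2(signal + 16) of each gene list on each array, each gene centred on its mean over 6 arrays (y axis), for 3 high-ROS (red) and 3 low-ROS (blue) arrays. The Nr4a and Egr mean and those of the stem and megakaryocyte markers separate the groups, as do those of the erythroid and monocyte markers, not plotted. The 6 genes were chosen for lower means on these same arrays, so nothing is read from their separation. The means of the other immediate early genes and of the AP-1 factors overlap and are highest on replicate 2 in each group.

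Genes that earlier mouse work ties to these factors in stem cells gave mixed values. Cdkn1a, the cell cycle inhibitor p21, had 560, 379 and 351 in high-ROS, against 1050.15, 660 and 493 in low-ROS CMP (log2 fold change -0.71, SE 0.253), and -0.95 (SE 0.171) on its other probe set, where the groups did not overlap. Bmi1, a Polycomb protein of self-renewal, was at -0.18 (SE 0.192) on the probe set standing for the gene and at 0.51 (SE 0.205) on the other. On that other probe set, every high-ROS array lay above every low-ROS array. Thy1 had -0.24 (SE 0.207) and Cebpa, a granulocytic factor, 0.03 (SE 0.164). None of these 4 passed across all genes (0 of 4, limma). At an unadjusted p under 0.05 (limma), 1 was lower, against 3.37% of all genes.

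Among 8151 genes with a mean signal over 100, the 5 whose profile over the 6 arrays was most like the mean of the 6 genes were Gata2, Lat, Pf4, Gpr146 and Adipor1, with Pearson correlations from 0.996 for Gata2 to 0.970 for Adipor1 and Spearman correlations between 0.771 and 0.943. Gata2, a zinc finger factor of early haematopoietic cells, had 306, 236 and 331 in high-ROS, against 494, 472 and 488 in low-ROS CMP. Its other probe set had 210.27, 240.31 and 168 in high-ROS, against 593, 604 and 594 in low-ROS CMP, and does not share the dip on high-ROS replicate 2. The correlations are the highest of 8151 values over 6 arrays that share 1 group difference, and they carry no test. With deviations from the group means in place of the values, the 5 were Rcl1, Xdh, Sesn1, Trappc13 and Snx1 (Pearson 0.993 to 0.998), none of them shared with the first 5.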

How the data were processed

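Per the labels' protocols, cDNA amplified from sorted CMP with a NuGEN Ovation kit carried biotin; it was read on 6 one-colour arrays with 45101 probe sets. The authors deposited 1 linear intensity per probe set and array; their probe summary and array scaling are not stated in the sources at hand. Array trimmed means (2% of each tail) were 181 to 198, so small shifts can depend on the scaling, and the number of arrays limits the precision.

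Probe sets were named from the platform's annotation table: 34945 had 1 gene symbol, 932 several, 9160 none and 64 were controls. The probe set with the highest mean log2(intensity + 16) stood for a gene. Arrays were not normalized further. The comparison, high-ROS over low-ROS, was fitted in limma 3.58.1 (R 4.3.3; lmFit, eBayes with a mean-variance trend, 2-sided) over 18193 genes, with Benjamini-Hochberg adjustment, a threshold of 0.05, 4 residual degrees of freedom and 11.1 with those borrowed across genes. SE values of single probe sets come from the same fit over all 34945 probe sets. The fit was tested on simulated data with changes of log2 size 2, of which 99.95% were recovered, with a false share of 5.95%. That size is larger than any change of the 6 genes, so the simulation does not bear on changes of their size. An exact permutation test of 3 against 3 arrays cannot go below 0.1 and was not used.

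The 6 genes and all lists were chosen with earlier results of these data known. Named genes were the 6, 2 per list other than marker lists with the smallest p, Cdkn1a, Bmi1, Nab1, Nab2, Srf, Rxra, Ier2 and Dusp1, and the 5 most similar profiles by each measure. Kit, Cd34, Flt3, Tek, Crem, Cebpa, Fos, Egr4, Angpt1, F2r, Slc4a1, Car2 and Ltf were added after their values were seen. Alternatives were no trend, bright genes only, 2 scalings, averaged or separate probe sets, a replicate block, weights per array, a pseudocount of 1 or 64, each array left out, the Gapdh ratio as a covariate and, added after seeing the data, dropping the 2 arrays with the extreme first-component scores. Promoter sequences are RefSeq's (GRCm38.p6). Python 3.11.15 with matplotlib 3.10.9 made the figures.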

Additional observations from a re-analysis of the deposited data

How the results depend on the processing

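Of the 18 alternatives run, 4 (no trend, bright genes only, 1 test per probe set and the replicate block) leave the fold changes of the 6 genes as they are by construction. Under the other 14, the means of all 6 were lower in high-ROS CMP. Their median log2 fold change of -0.33 lay between -0.50, without high-ROS replicate 3, and -0.27, without high-ROS replicate 2, when 1 array was left out. It was -0.42 with array weights, -0.47 without the 2 arrays of extreme first-component score and -0.69 under the Gapdh covariate; the cause was not tested. With 1 array left out, Nr4a1 ran between -0.91 and -0.65, Nr4a2 between -0.39 and -0.09, Nr4a3 between -0.62 and -0.11, Egr1 between -0.42 and -0.19, Egr2 between -0.36 and -0.21 and Egr3 between -0.67 and -0.29. The farthest values outside those ranges under other alternatives were -0.55 for Nr4a1 and -0.75 for Egr3 without the 2 extreme arrays, -0.67 for Nr4a2 and -0.72 for Nr4a3 under the Gapdh covariate, and -0.17 for Egr3 with the mean of its probe sets. The median over all genes was 0.0034 with quantile normalization and 0.0403 with trimmed mean scaling. The count of genes called over all 18193, 10 (7 lower, 3 higher), was 0 with no trend (limma; 829 higher, 522 lower by unadjusted p under 0.05), 16 with bright genes only, 4 with the replicate block, 30 with array weights, 4 with a pseudocount of 64, 3 with the Gapdh covariate and 4 without the 2 extreme arrays. With 1 array left out it was 1 to 6: 6 when high-ROS replicate 3 was dropped, 2 when replicate 2 of that group was, and 1 for each of the others. Same-numbered arrays deviated from their group means with correlations of 0.119, 0.0966 and 0.00275. The numbers were not used as pairs because no label says that they mark a shared animal or sort. Whether they mark a shared preparation was not settled. The replicate block left the median of the 6 genes at -0.33. Signals near the array medians limit 4 of the 15 probe sets, whose directions are not read.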
